A study of Drosophila melanogaster with 4 samples.

Results

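The CySC-like cells of TrafficJam-Upd testis tumors were split by whether the transcript of a fluorescent driver reporter was seen in them. A cell was called reporter-positive when it held at least 1 unique molecular identifier (UMI) of the H3-GFP transgene, and reporter-negative when it held 0. By this rule, 797 of 3422 CySC-like cells were positive and 2625 were negative, out of 20618 cells of all classes and tumors. Replicate 1 gave 494 positive and 1391 negative cells, and replicate 2 gave 303 and 1234. Each positive cell was then paired with a negative cell of the same library and nearly the same UMI total, so that the comparison asks what accompanies driver activity in cyst cells of closely matched UMI totals. The members were chosen by their H3-GFP UMI count, which is therefore given as a description only.

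Single-cell RNA sequencing was performed on Drosophila melanogaster testis tumors induced by forced expression of Unpaired (Upd), with 2 libraries for each of 2 tumor types. The TrafficJam-Upd flies carried w[1118], the traffic Jam-GAL4 driver, UAS-Upd and the reporter UAS-FRT-H3-GFP-FRT-H3-mKO, in which histone H3 is fused to GFP. The Nanos-Upd flies, used here for reference, carried y[1] w[1118], P{hs70FLP}, the germline driver GAL4::VP16-nanos.UTR, and the same UAS-Upd and reporter elements. Every group therefore overexpressed Upd, no library came from tumor-free testes, and testes of several flies were pooled for each tumor type.

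The yeast transcription factor GAL4 switches on any transgene placed behind its UAS binding sites, so UAS-Upd and UAS-H3-GFP are under the same driver in one cell. The traffic jam gene encodes a Maf-type transcription factor that is made in the cyst stem cells and early cyst cells of the fly testis, the somatic cells that enclose the germ cells. Upd is the ligand of the JAK-STAT pathway: it binds the receptor Domeless, the kinase Hopscotch phosphorylates Stat92E, and Stat92E turns on targets that include the feedback inhibitor Socs36E and the cyst stem cell factors zfh1 and chinmo. In the normal testis the ligand comes from the hub, a small cluster of somatic cells at the tip, and keeps cyst stem cells from differentiating.

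The TrafficJam-Upd libraries held 3241 and 3669 cells with 13190124 and 14077062 UMIs in replicates 1 and 2. The CySC-like cells had a median of 3189 and 2868 UMIs. Across the 4 libraries 35 cell barcodes occurred more than once, and 1 was shared by the CySC-like cells of both TrafficJam-Upd libraries. The cyst marker tj went with the class label in reporter-positive and reporter-negative cells alike, since it stood at 394 to 451 CPM (counts scaled to a total of 1000000) in their matched sums, whereas it stood at 13.0 to 34.2 CPM in sums of GSC-like cells of Nanos-Upd tumors. The germline marker vas stood at 21.99 to 42.3 CPM in the CySC-like sums.

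Among CySC-like cells, 26.2% were reporter-positive in replicate 1 and 19.7% in replicate 2 (22.96% ± 4.59, SD, n = 2). Their 95% exact binomial intervals, which cover counting error only, ran from 24.2 to 28.3% and from 17.8 to 21.8%, so the libraries did not overlap. The GSC-like cells of the same libraries, in which the cyst driver should be silent, gave 1.34% (15 of 1119 cells, median 5014 UMIs) and 1.67% (30 of 1795 cells, median 4081 UMIs), although they were deeper. CySC-like cells of the Nanos-Upd tumors, which carry the reporter without a cyst driver, gave 1.49% and 3.20%. The small classes of the TrafficJam-Upd libraries (60 to 175 cells) gave 1.06 and 2.29% for spermatocytes, 4.82 and 5.13% for muscle and 6.67 and 4.76% for other somatic cells. The GSC-like cells of Nanos-Upd, driven by nanos, gave 21.6% and 23.5% at medians of 4802 and 3531 UMIs. After every cell was thinned to 2200 UMIs they gave 10.6% and 15.3%, beside 18.8% and 14.8% for the CySC-like cells of TrafficJam-Upd. Summed over all CySC-like cells, H3-GFP stood at 102.6 and 74.1 CPM in the TrafficJam-Upd libraries.

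**Figure D1:**
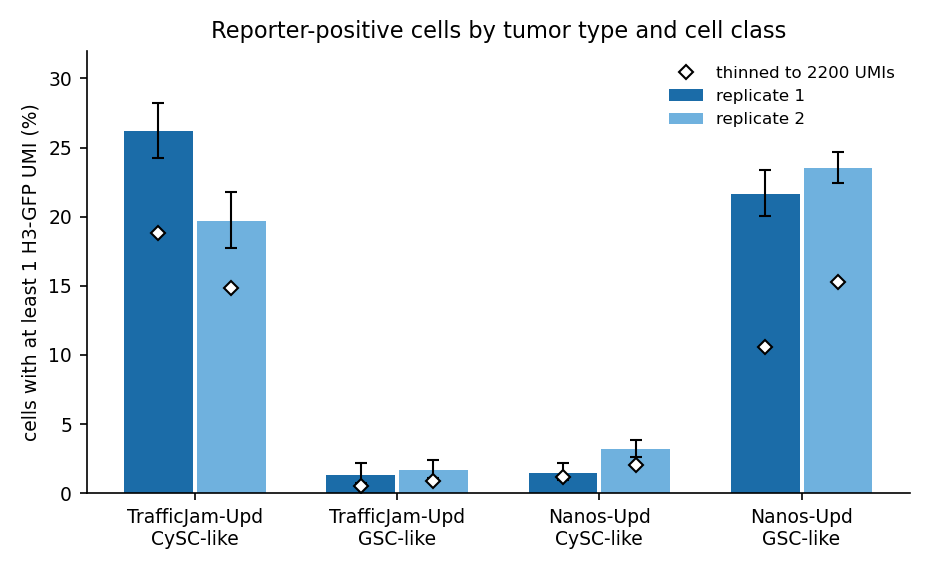
Share of cells with at least 1 H3-GFP UMI (vertical axis, percent) by tumor type and class, with 1 bar per library, 95% exact binomial intervals, and diamonds for the share after each cell was thinned to 2200 UMIs. The driven classes, CySC-like in TrafficJam-Upd and GSC-like in Nanos-Upd, stand at 19.7 to 26.2%, and the GSC-like cells of TrafficJam-Upd and CySC-like cells of Nanos-Upd at 1.34 to 3.20%.

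Most positive cells lay just past the threshold. In replicate 1, 360 cells held 1 reporter UMI, 95 held 2, 23 held 3, 14 held 4 and 2 held 5. In replicate 2, 246 cells held 1, 47 held 2, 8 held 3, none held 4, and the highest cell held 6. Cells with at least 2 UMIs thus made up 7.11% and 3.71% of the class. The positive share was highest among the deepest cells when each library was cut into 4 depth classes of like size, at 35.03% and 29.4% against 21.6% and 15.0% in the shallowest class, and thinning every cell to 2200 UMIs brought these to 19.1% and 18.0% against 19.9% and 15.0%. A reporter-negative cell is therefore one in which no reporter molecule was captured, and it was not shown to lack the driver.

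Pairing removed the difference in depth. Positive and matched negative cells had medians of 3316 and 3314 UMIs in replicate 1 and of 3154 and 3156 UMIs in replicate 2, where all negative cells had medians of 3151 and 2818.5. The median gap within a pair was 1 UMI and the largest 377 and 138. Only the UMI total was matched. Matched positive and negative cells had medians of 1297 and 1287.5 detected genes in replicate 1 and of 1190 and 1212 in replicate 2. The mitochondrial percent was lower in positive cells of both libraries, with medians of 5.12% against 5.34% and of 4.97% against 5.33%. Ribosomal transcripts took 31.9% against 31.7% in replicate 1 and 33.9% against 32.4% in replicate 2. Flipping the signs of 2 libraries in an exact permutation test (two-sided) cannot give a p below 0.5, so these per-cell medians are descriptions.

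Counts were summed over the matched cells of each kind in each library and compared with edgeR's quasi-likelihood test, with the library as a block. The differences were small. Across 6542 tested genes, 66 (1.01%) were called at an adjusted p under 0.05, of which 42 (0.642%) were higher and 24 (0.367%) lower in reporter-positive cells. The called genes had a median absolute log2 fold change of 0.35, and 7 changed by more than 2-fold. The test favors genes whose libraries agree, so agreement among its calls is no separate support. In 64 of the 66 both libraries and the fit moved the same way, as did 54.6% of all genes tested. The exceptions were CG18628, at 444 and 97.1 CPM in positive and negative cells of replicate 1 but 72.6 and 80.9 CPM in replicate 2, where 1 positive cell held 487 of the 828 UMIs of replicate 1, and Mst57Db, which had no UMI in the matched cells of replicate 2. CG18628 still had a fitted rise of 1.63 ± 0.12 and an edgeR adjusted p of 1.9e-37. Another pairing order gave 1.64 ± 0.97 and 0.850, so its p-value does not measure how well the libraries agree.

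The fit rests on 4 sums with 1 residual degree of freedom, and the count of calls moved with the settings: at least 2 reporter UMIs per positive cell gave 100 calls, DESeq2 called 2 genes (aqz and MtnA), thinned cells gave 8, removing cells with markers of both lineages gave 27, and dropping the library block gave 0 (214 at an unadjusted p under 0.05, against 596 with the block). Without replicate 1 there were 0 calls (547 at an unadjusted p under 0.05) and without replicate 2 there were 5, in fits whose lone library is assumed to vary like the others.

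**Figure D2:**
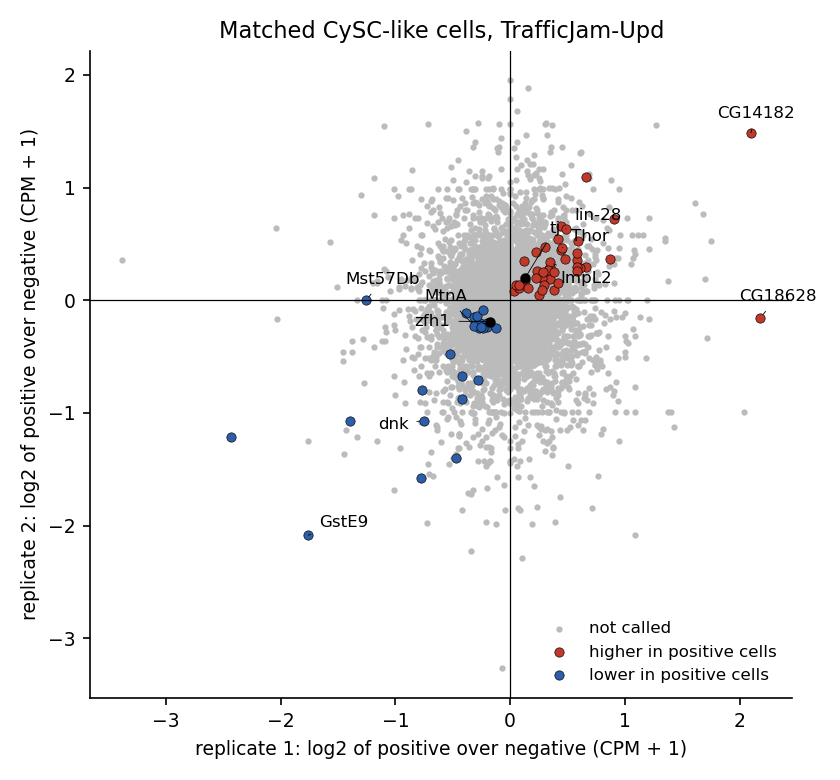
Log2 ratio of reporter-positive over matched reporter-negative cells in replicate 1 (horizontal) and replicate 2 (vertical), on CPM with 1 added, 1 point per gene of the 6542 tested. Most of the 42 called higher (red) and 24 called lower (blue) lie close to the origin, and 7 called genes changed by more than 2-fold. The genes tj and zfh1 (black) were not called, and CG18628 and Mst57Db are the 2 called genes that do not share a direction.

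The genes of the driver and its payload did not pass the test. The driver's own source gene, tj, stood at 438 CPM in positive and 401 CPM in negative cells of replicate 1 and at 451 and 394 CPM in replicate 2. It was thus higher in positive cells of both libraries, by 0.18 ± 0.08 (log2, SE), and its edgeR adjusted p was 0.376. The deposited counts for upd1, the gene of the ligand, do not separate transgene from endogenous transcripts. They stood at 88.4 and 76.7 CPM in replicate 1 and at 66.2 and 69.0 CPM in replicate 2, so the libraries went opposite ways (0.14 ± 0.15, adjusted p = 0.856). The white gene w, whose wild-type form is a common marker on transgenes, stood at 494 and 408 CPM in replicate 1 and at 323 and 336 CPM in replicate 2 (adjusted p = 0.414).

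Seen from the side of the transcripts, the reporter share was slightly higher in cells with tj. After thinning, 19.5% of cells with a tj UMI and 18.1% of those without were reporter-positive in replicate 1, and 16.8% and 12.5% in replicate 2. For upd1 the shares were 22.6% and 18.2% in replicate 1 and 14.9% and 14.8% in replicate 2. The exact intervals of the cells with and without overlapped for both genes in each library.

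None of 14 tested genes of the JAK-STAT pathway and its targets passed, with a median log2 fold change of 0.13 beside 0.002 for all genes tested. The median of the log2 ratios was 0.18 in replicate 1 and -0.04 in replicate 2, beside -0.004 and -0.03 for all genes. The list thus lay above all genes in replicate 1 and close to them in replicate 2. In both libraries at once, 6 of 14 (42.9%) lay above 0 beside 22.6% of all genes, and 2 (14.3%) below 0 beside 32.6%. The summed level of the list was 1.09 and 1.03 times as high in positive as in negative cells. Socs36E, the feedback inhibitor, stood at 1232 and 1127 CPM in positive and negative cells of replicate 1 and at 1082 and 994 CPM in replicate 2. It was higher in both, by 0.15 ± 0.05, and missed the threshold (adjusted p = 0.137). Socs36E passed when positive cells had to hold at least 2 reporter UMIs (0.44, adjusted p = 0.0082) and against all negative cells (0.14, adjusted p = 0.028). It passed in no other setting. The change was 0.12 without cells that held markers of both lineages (adjusted p = 0.657) and 0.083 without cells rich in terminal epithelium markers (adjusted p = 0.685). The transcription factor Stat92E stood at 626 and 574 CPM and at 524 and 497 CPM (adjusted p = 0.569). The transcriptional repressor ken stood at 150.1 and 114 CPM and at 149 and 119 CPM (0.39 ± 0.12, adjusted p = 0.095). The receptor gene dome stood at 133 and 113 CPM in replicate 1 and at 125 and 129.7 CPM in replicate 2.

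None of 13 tested cyst lineage markers passed either. The stem cell factor zfh1 stood at 260.5 and 295 CPM in positive and negative cells of replicate 1 and at 237 and 270.4 CPM in replicate 2, the reverse order to tj (log2 fold change -0.16 ± 0.09, adjusted p = 0.621). With at least 2 reporter UMIs that order turned, to 0.31 (adjusted p = 0.395). The repressor chinmo stood at 983 and 912 CPM and at 809 and 808 CPM (adjusted p = 0.661). The differentiation marker eya was low in both kinds of cell, at 34.3 and 33.8 CPM and at 27.6 and 24.8 CPM. The Hedgehog receptor ptc went opposite ways, at 62.2 and 42.4 CPM in replicate 1 and 40.5 and 59.8 CPM in replicate 2. The growth factor receptor Egfr, through which germ cells signal to cyst cells, stood at 266 and 236 CPM and at 219 and 217 CPM (adjusted p = 0.732).

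**Figure D3:**
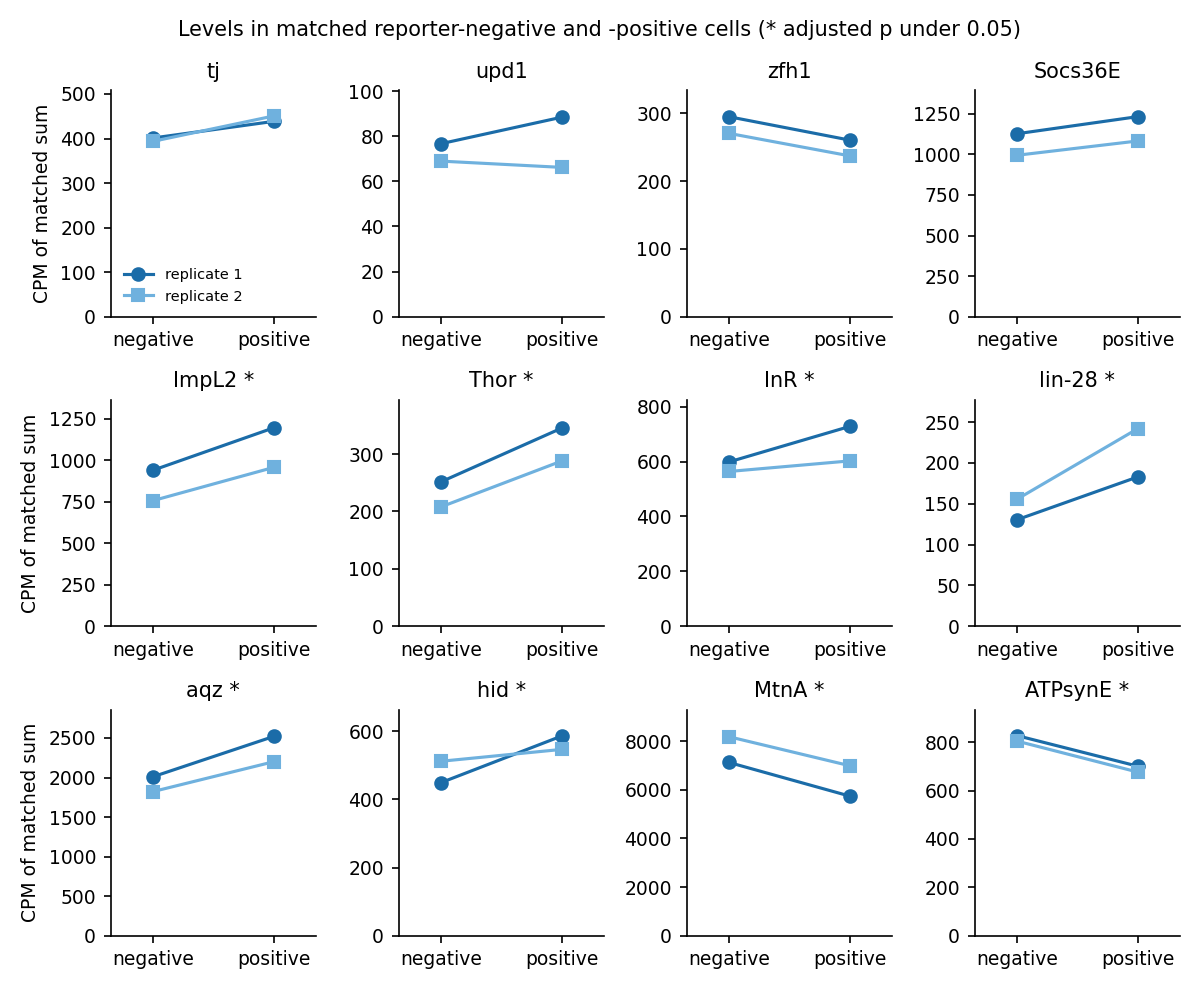
CPM in the summed matched reporter-negative and reporter-positive cells of each library (vertical axes start at 0) for 12 genes, with a line per library and an asterisk for an edgeR adjusted p under 0.05. Both libraries rise for ImpL2, Thor, InR, lin-28, aqz and hid and fall for MtnA and ATPsynE, while tj, upd1, zfh1 and Socs36E did not pass.

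The genes of insulin signalling held the most calls of the 27 lists examined. Of 13 tested genes of insulin and Pvr signalling, 3 (23.1%) rose, beside 0.642% of all genes, and none fell. The median log2 fold change was 0.13, and 9 of 13 (69.2%) lay above 0 in both libraries beside 22.6% of all genes. ImpL2 encodes a secreted protein that binds insulin-like peptides and damps insulin signalling (chromosome 3L, 4224006 to 4236147, minus strand). It stood at 1196 and 940.1 CPM in positive and negative cells of replicate 1 and at 957 and 757 CPM in replicate 2, a rise of 0.37 ± 0.05 (adjusted p = 1.1e-08). Thor encodes 4E-BP, a repressor of cap-dependent translation that insulin and TOR signalling inactivate and that the transcription factor FOXO induces (chromosome 2L, 3478434 to 3479612, plus strand). It stood at 345 and 252 CPM in replicate 1 and at 288 and 208 CPM in replicate 2, a rise of 0.48 ± 0.09 (adjusted p = 1.4e-04).

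The insulin receptor gene InR (chromosome 3R, 21570248 to 21619321, minus strand) stood at 728 and 598 CPM in replicate 1 and at 602 and 564 CPM in replicate 2. Its rise of 0.23 ± 0.06 was close to the threshold (adjusted p = 0.044). The receptor gene Pvr stood at 137 and 119 CPM and at 144 and 122 CPM (adjusted p = 0.543), foxo itself at 257 and 246 CPM and at 221 and 225 CPM, and the kinase gene Akt at 194 and 190.4 CPM and at 200.4 and 185 CPM. The insulin-like peptide gene Ilp6 lay on the other side, at 107 and 121 CPM and at 114 and 139 CPM (adjusted p = 0.68). ImpL2 stayed called in thinned cells, without mixed cells and with at least 2 reporter UMIs. Thor stayed called in thinned cells, but not without mixed cells (0.38, adjusted p = 0.056) or with at least 2 reporter UMIs (0.48, adjusted p = 0.082), and InR lost its call in thinned cells (0.13, adjusted p = 0.63).

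The following genes rose as well. The RNA-binding protein gene lin-28, whose product blocks maturation of the let-7 microRNA, stood at 183 and 130.3 CPM in positive and negative cells of replicate 1 and at 242 and 155 CPM in replicate 2 (0.58 ± 0.11, adjusted p = 2.3e-04; chromosome 3L, 5654681 to 5657384, plus strand). After thinning, 32.2% of positive and 24.5% of negative cells of replicate 1 held a lin-28 UMI, and 38.9% and 28.4% in replicate 2, but the thinned counts did not pass the test (0.53, adjusted p = 0.063). Corkscrew, csw, the SHP2-type phosphatase that acts in receptor tyrosine kinase signalling, stood at 238 and 179 CPM and at 186 and 127 CPM (0.49 ± 0.11, adjusted p = 0.0040). The gene magu, which encodes a secreted modulator of BMP signalling, stood at 1122 and 916 CPM and at 1007 and 915 CPM (0.25 ± 0.05, adjusted p = 0.0011). It was the only call among 13 BMP pathway genes (7.69% called higher, beside 0.642% of all genes).

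The Hippo pathway regulator kibra stood at 639.9 and 526 CPM in replicate 1 and at 542 and 455 CPM in replicate 2 (0.30 ± 0.07, adjusted p = 0.0080). It was the only call among 15 genes of the Hippo and Fat pathway (6.67% called higher, beside 0.642% of all genes). The death inducer hid, whose product antagonizes the caspase inhibitor Diap1, stood at 586 and 449 CPM and at 547 and 512 CPM (0.28 ± 0.07, adjusted p = 0.015). The other 13 of 14 apoptosis genes did not pass (7.14% called higher, beside 0.642% of all genes). The noncoding RNA gene lncRNA:roX2, part of the complex that doubles transcription of the male X chromosome, stood at 1236 and 1037 CPM and at 1001 and 967 CPM (0.19 ± 0.05, adjusted p = 0.026). No other of 8 dosage compensation genes passed (12.5% called higher, beside 0.642% of all genes). Of the 8, 5 (62.5%, beside 22.6% of all genes) lay above 0 in both libraries and none below 0 in both.

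The 12 largest rises also included the following genes. The triglyceride lipase gene bmm stood at 90.6 and 60.1 CPM in replicate 1 and at 97.5 and 72.7 CPM in replicate 2, and the phosphoinositide phosphatase gene EDTP at 152 and 99.2 CPM and at 117 and 95.6 CPM. Rises of 0.47 to 0.60 were also found for CG10702, mlt, CG32486, CG15784, CG18135, tara and Ccdc85, with adjusted p between 0.0055 and 0.050. The naming rule did not ask for the genes of smallest p that follow, which leave out CG18628, described above. Of these, aqz (chromosome 3R, 8813490 to 8820682, minus strand) stood at 2519 and 2009 CPM and at 2199 and 1822 CPM (0.33 ± 0.04, adjusted p = 1.5e-12), and Sirup, CG9336 and CG6770 rose by 0.31, 0.27 and 0.27.

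The metallothionein gene MtnA, whose product binds metal ions, was the most abundant gene that fell (chromosome 3R, 9783407 to 9784370, minus strand). It stood at 5743 and 7125 CPM in positive and negative cells of replicate 1 and at 6992 and 8183 CPM in replicate 2, a change of -0.25 ± 0.03 (adjusted p = 1.5e-12). MtnA was also listed as a marker of terminal epithelium and seminal vesicle, whose summed markers stood at 6285 and 7659 CPM and at 7584 and 8774 CPM and consist mostly of MtnA. The defining markers hh, Sox100B and Rdl of that list were at or near 0. Without the cells in which the list took at least 1% of UMIs, a removal that uses MtnA itself, the change was -0.004 (adjusted p = 0.992), and without replicate 1 it was -0.16 (adjusted p = 0.26).

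The 12 named falls included 3 genes of the respiratory chain and ATP synthase, a family of which 5 of 66 tested members fell (7.58%, beside 0.367% of all genes). ATPsynE stood at 701 and 827 CPM in positive and negative cells of replicate 1 and at 677 and 805 CPM in replicate 2 (-0.22 ± 0.06, adjusted p = 0.031). ATPsynCF6 stood at 724 and 862 CPM and at 742 and 876 CPM, and the complex III subunit gene ox at 718 and 892 CPM and at 884 and 979 CPM (both adjusted p = 0.023). The mitochondrial percent of the matched cells, given above, was also lower in the positive cells of both libraries, and its part in these calls was not tested.

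The endocytic receptor gene mgl (megalin) stood at 582 and 704 CPM and at 580.2 and 689 CPM (-0.24 ± 0.06, adjusted p = 0.029), and the importin gene Pen at 557 and 729 CPM and at 666 and 720.1 CPM (-0.24 ± 0.06, adjusted p = 0.023). The call of mgl was kept with at least 2 reporter UMIs (-0.66, adjusted p = 0.0033). Its call was lost in thinned cells (-0.25, adjusted p = 0.158), without mixed cells (-0.17, adjusted p = 0.464) and without cells rich in terminal epithelium markers (-0.16, adjusted p = 0.368). Hsdl2, CG14984, alpha-Est9, CG46339, Neb-cGP and roh fell by 0.20 to 0.55 on the log2 scale, with adjusted p between 0.012 and 0.045. In CG46339 more than 10% of the UMIs of a sum came from 1 cell.

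Genes of DNA replication and mitosis lay slightly below the rest. Of 41 tested DNA replication genes 1 fell (2.44%, beside 0.367% of all genes). It was the deoxyribonucleoside kinase gene dnk, at 19.3 and 33.2 CPM in replicate 1 and 17.5 and 37.7 CPM in replicate 2 (-0.88 ± 0.24, adjusted p = 0.029). The median of the list was -0.11 beside 0.002 for all genes, and 30 of 41 (73.2%) lay below 0 beside 49.7% of all genes. In both libraries at once, 23 of 41 (56.1%) lay below 0 beside 32.6% of all genes. None of 33 tested mitosis genes passed, but their median was also -0.11, with 27 of 33 (81.8%) below 0 and 15 (45.5%) below 0 in both libraries. Mcm2, a subunit of the replicative helicase, stood at 18.2 and 25.2 CPM and at 12.9 and 23.0 CPM (adjusted p = 0.48), and the mitotic kinase gene polo at 59.5 and 71.9 CPM and at 62.5 and 81.8 CPM (adjusted p = 0.564). Across all settings tried the list medians stayed below 0, from -0.42 to -0.06 for DNA replication and from -0.31 to -0.04 for mitosis. The summed level of the mitosis list was 0.896 and 0.933 times as high in positive as in negative cells.

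**Figure D4:**
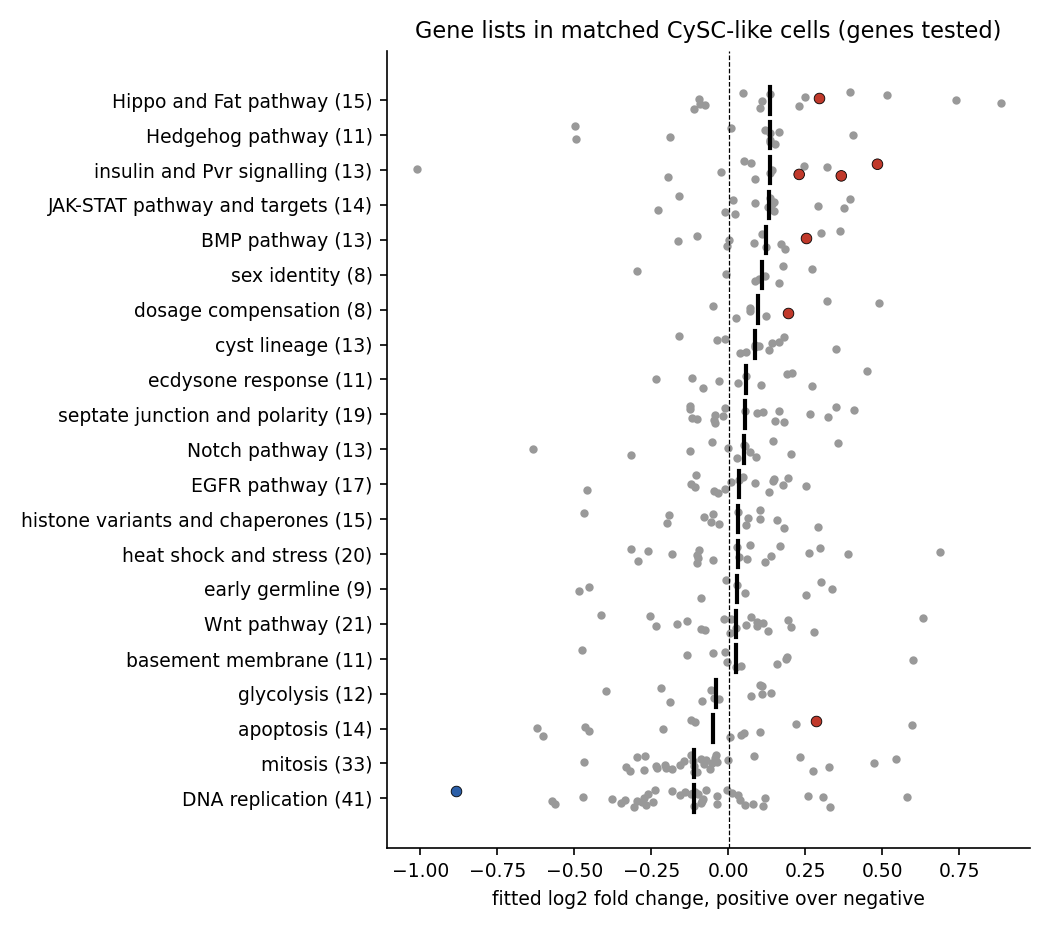
Fitted log2 fold change of reporter-positive over reporter-negative cells (horizontal) for every tested gene of the 21 lists with at least 8 tested genes, with called genes as large points (red higher, blue lower), list medians as black bars and the median of all genes dashed. Insulin and Pvr signalling holds 3 called genes, and the medians of DNA replication and mitosis lie at -0.11.

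Among the markers of other cell types, the only call was that of MtnA, described above, on the terminal epithelium and seminal vesicle list. The sum of that list, mostly MtnA, was 0.821 and 0.864 times as high in positive as in negative cells. Its other tested markers, nord and Hsp23, lay above 0 (0.49 and 0.03) and did not pass (adjusted p = 0.793 and 0.931). None of 9 tested early germline markers passed, and their summed level was 224 CPM in both kinds of cell in replicate 1 and 359.5 and 373 CPM in replicate 2. Of the spermatocyte markers 2 could be tested and neither passed, with summed levels of 38.6 and 38.6 CPM and of 55.2 and 52.4 CPM. None of 4 tested muscle markers passed, at 521 and 550.2 CPM and at 462 and 556 CPM in sum. None of 4 tested hub markers passed, at 1154 and 1068 CPM and at 881 and 931 CPM. The remaining lists (Hedgehog, EGFR, Wnt, Notch, Slit and Robo, ecdysone response, septate junction, basement membrane, histone variants and chaperones, heat shock, sex identity and glycolysis) held no called gene.

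The level of several called genes followed the number of reporter UMIs in the cell. All CySC-like cells of the TrafficJam-Upd libraries were used here, without matching on depth. Before thinning, cells with 2 reporter UMIs had medians of 3546 and 4042 UMIs in replicates 1 and 2, against 3151 and 2818.5 in cells with 0. The part of depth in these levels was not tested. After thinning to 2200 UMIs, aqz stood at 2253, 2453 and 3005 CPM in cells of replicate 1 with 0, 1 and at least 2 reporter UMIs, and at 1872, 2082 and 2624 CPM in replicate 2. Its level was thus ordered by reporter UMIs in both libraries. For lin-28 the levels were 146, 172 and 258 CPM in replicate 1 and 154, 216 and 367 CPM in replicate 2. ImpL2 stood at 1123, 1135 and 1418 CPM and at 732, 859 and 1156 CPM, so cells of replicate 1 with 0 and 1 reporter UMI were nearly alike.

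Thor was not ordered in replicate 2, at 220.3, 327 and 287 CPM after 256, 339.6 and 393 CPM in replicate 1. The level of mgl fell along the same axis, at 651, 621 and 451 CPM and at 643, 612 and 367 CPM. MtnA stood at 6446, 5854 and 5014 CPM in replicate 1, but at 8008, 8032 and 4226 CPM in replicate 2, where cells with 0 and 1 reporter UMI were alike. The cells with at least 2 UMIs numbered 134 and 57, so their levels are the least certain. These values share cells with the contrast that called the genes and are no further test of it.

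**Figure D5:**
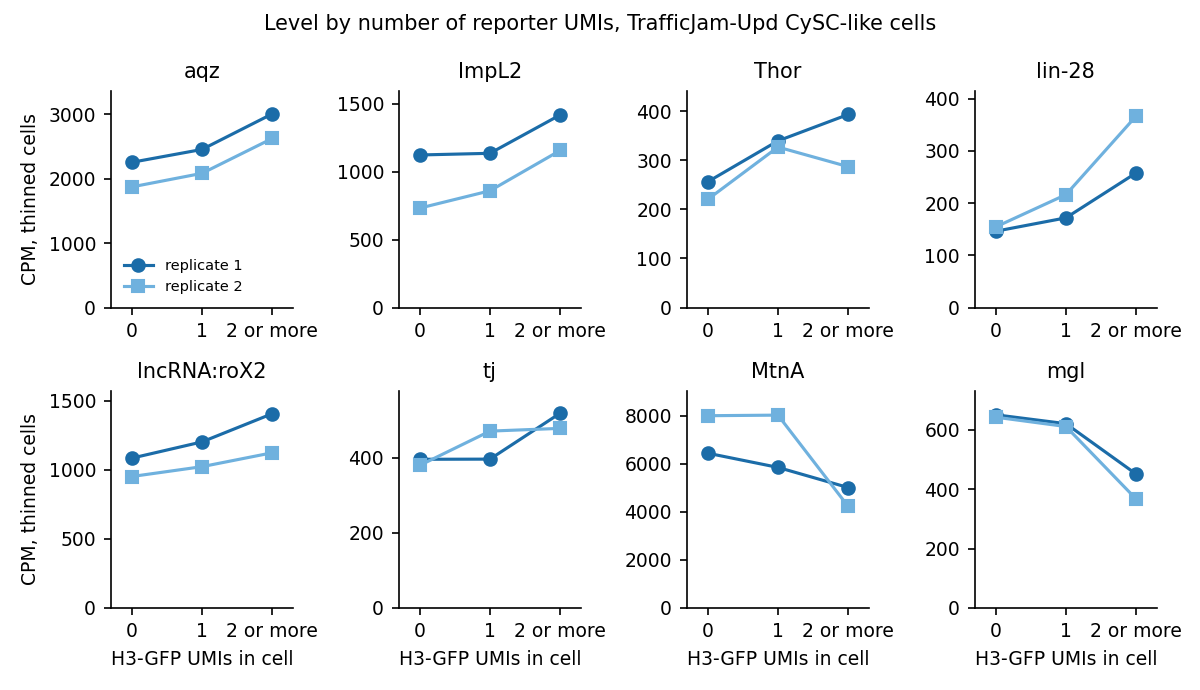
CPM in TrafficJam-Upd CySC-like cells thinned to 2200 UMIs (vertical axes start at 0) by the number of H3-GFP UMIs in the unthinned cell, with a line per library. Levels of aqz, lin-28 and lncRNA:roX2 rise and mgl falls with reporter UMIs in both libraries, while Thor in replicate 2 is highest at 1 UMI. ImpL2 also rises, but in replicate 1 hardly from 0 to 1 UMI.

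To see which differences set CySC-like cells apart from another driven class, the reporter effect was compared with that in the GSC-like cells of Nanos-Upd, matched by the same rule (521 and 1311 pairs). Of 8060 genes tested in this interaction, 114 (1.41%) differed, of which 88 (1.09%) had the higher effect in the CySC-like cells and 26 (0.323%) the lower. Thor stood lower, not higher, in reporter-positive germline cells of both libraries, at 53.4 and 71.7 CPM in replicate 1 and 39.8 and 54.4 CPM in replicate 2, and its effects differed by 0.93 ± 0.14. ImpL2 stood at 23.9 and 23.6 CPM and at 43.3 and 53.8 CPM in the germline sums, a difference in effect of 0.61 ± 0.13. InR stood at 359 and 428 CPM and at 412 and 437 CPM there, a difference of 0.39 ± 0.08. All 3 passed the test (adjusted p of 5.6e-08, 0.0019 and 9.3e-04). They were picked for their calls in the CySC-like sums, which the interaction reuses, so passing it is no separate support for those calls.

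Among called genes that averaged at least 50 CPM over the 8 sums, the largest differences in effect were those of Traf4 and mlt, with higher effects in the CySC-like cells by 1.28 and 1.21, and of CG32816, with a lower effect by 1.22 (log2 difference -1.22). Some genes below that level differed more, such as CG15784 by 1.47 at an average of 47.9 CPM. Traf4, a signalling adaptor, had levels of 107 and 90.1 CPM in replicate 1 and of 100.2 and 80.9 CPM in replicate 2 of the CySC-like sums, and of 3.87 and 9.85 CPM and 5.82 and 10.4 CPM in the germline sums. The effects on MtnA did not pass the test of a difference (-0.09 ± 0.05, adjusted p = 0.52). Cell class, tumor type and fly line cannot be told apart in this comparison, which gave 0 calls without the library block (146 at an unadjusted p under 0.05), 16 by DESeq2 and 5 to 60 when 1 library was left out.

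The Nanos-Upd tumors also hold CySC-like cells, in which no cyst driver was present, and show what accompanies tj transcripts themselves. There 1421 and 2628 cells held a tj UMI and 261 and 529 did not, and these were matched on depth in the same way. Of 6827 genes tested, 30 (0.439%) passed, 4 (0.0586%) higher and 26 (0.381%) lower in cells with tj. The Wnt ligand gene Wnt4, the cadherin gene CadN and the receptor tyrosine kinase inhibitor gene sty rose by 0.40, 0.39 and 0.36. The ecdysone-induced transcription factor gene Eip93F, sona and CG34417 changed by -1.93, -1.76 and -1.20.

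Of the genes that went with the reporter, 3 also went with tj in these independent libraries, all in the same direction: MtnA, mgl and CG5399. They made up 4.55% of the reporter calls, where 0.439% of all genes tested for tj were called. They made up 10% of the tj calls, where 1.01% of all genes tested for the reporter were called. The reporter calls of MtnA and mgl were both lost without cells rich in terminal epithelium markers. MtnA stood at 3593 and 5123 CPM in cells with and without tj in replicate 1 and at 3636 and 4545 CPM in replicate 2 (-0.42 ± 0.06, adjusted p = 0.0010). For mgl the levels were 616 and 1120 CPM and 509.9 and 668 CPM (-0.61 ± 0.09, adjusted p = 8.2e-04). The insulin genes did not pass there: ImpL2 stood at 1036 and 800.2 CPM and at 635 and 636 CPM (adjusted p = 0.776), Thor at 235 and 250.1 CPM and at 215 and 260 CPM (adjusted p = 0.782) and InR at 756 and 794 CPM and at 739 and 738 CPM (adjusted p = 0.981). The gene lin-28 stood at 182 and 166 CPM and at 135 and 133 CPM (adjusted p = 0.981). Counts of this comparison ran from 0 without the library block (105 at an unadjusted p under 0.05) to 100 without Nanos-Upd replicate 2.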

How the data were processed

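Dissociated testis tumors were profiled with 10x Genomics 3' chemistry, per the labels. The authors deposited raw UMI counts per gene and cell, together with each cell's library, class and percent of mitochondrial and ribosomal UMIs. The submitters' processing notes name Cell Ranger 7.0.0, Seurat 5.0.3 and the build dm6. How classes were assigned, and whether doublets were removed, is not given in the sources used here, and no doublet caller was run. Deposited cells held 2200 to 7499 UMIs, and the counts summed to the deposited total in 20618 of 20618 cells. The 17558 features include 1 transgene row, H3-GFP.

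Groups and replicate numbers come from the sample titles. Nothing says that the libraries of a tumor type came from separate fly pools. With the library as a block, p-values set the positive-minus-negative differences against a spread between these libraries. With 1 residual degree of freedom, that spread is estimated for each gene with the help of the other genes. It need not show a gene's own disagreement between libraries, as CG18628 shows. That spread may be technical. Each positive cell was paired with the unused negative cell of its library with the nearest UMI total. Counts were summed per library and tested with edgeR 4.0.16 (TMM, filterByExpr, robust quasi-likelihood fit, R 4.3.3) with Benjamini-Hochberg adjustment over all genes tested, without the H3-GFP row (or the tj row, where tj split the cells). The library is a block because both sums come from the same library, so the pairing holds by construction. The script was tested on simulated data. The changes planted there were larger than the median called change and did not vary between libraries. That test therefore does not cover calls of the size found here. Standard errors follow from the F statistic. CPM are counts scaled to a total of 1e+06 per sum, and ratios plotted per library add 1 CPM. Thinning drew 2200 UMIs from each cell. Intervals are exact (95%).

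The members, lists and tests were chosen with earlier results of these data known. Named genes are the 12 largest changes in each direction among calls whose sums averaged 50 CPM or more and whose libraries moved the same way (3 each for the other 2 comparisons), up to 3 called genes per list and direction, and tj, upd1, zfh1, eya, chinmo, Socs36E, Stat92E, ptc and Egfr. Other genes of the lists, w, and the genes with the smallest p were added after their values were seen. The 27 lists held 424 entries, of which 422 matched. Positions are from Ensembl 115 (build BDGP6, the same assembly as dm6), matched for 17515 features. Alternatives were DESeq2 1.42.0, RLE factors, no filter, all negative cells, another pairing order, a spread shared with the other tumor type, thinned cells, at least 2 UMIs, no mixed cells (CySC-like cells with UMIs of at least 2 germline markers, GSC-like cells with at least 2 cyst markers), no cells rich in terminal epithelium markers, no block and each library left out. Removing the 1 cell with most CG18628 UMIs was added after seeing the data. Figures used Python 3.11.15 and matplotlib 3.10.9.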

Additional observations from a re-analysis of the deposited data

Results flagged for a closer look

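The effect of the reporter differed between the CySC-like cells of TrafficJam-Upd and the GSC-like cells of Nanos-Upd for 114 genes, by the edgeR interaction test. Each value below is the log2 effect in CySC-like cells minus that in GSC-like cells, and all passed an adjusted p of 0.05 in that test. Cell class, tumor type and fly line cannot be told apart in it. The test reuses the CySC-like sums in which many of these genes were called, so it is no separate support for those calls.

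Among the genes of insulin and Pvr signalling the differences were 0.93 for Thor, 0.61 for ImpL2 and 0.39 for InR. They were 0.59 for the phosphatase gene csw, 0.54 for magu of the BMP list and 0.49 for kibra of the Hippo and Fat list. The dosage compensation RNA lncRNA:roX2 differed by 0.76, the death inducer hid by 0.44, and the feedback inhibitor Socs36E, which was not called in CySC-like cells alone, by 0.45. Among metabolic and other genes the differences were 0.94 for bmm, 0.74 for tara, 0.61 for Ccdc85, 1.47 for CG15784 and 0.55 for CG32486. For the abundant genes they were 0.42 for aqz, 0.42 for Sirup, 0.32 for CG9336 and 0.31 for CG6770.

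Genes lower in reporter-positive CySC-like cells differed by -0.38 for Pen, -0.26 for ATPsynCF6, -0.25 for ox and -0.25 for roh. The genes named for the interaction itself were Traf4 at 1.28, mlt at 1.21, the protocadherin gene ds at 0.97, CG32816 at -1.22, RapGAP1 at -0.76 and CG11980 at -0.69. The adhesion gene ds stood at 29.5 and 13.4 CPM in positive and negative CySC-like cells of replicate 1 and at 26.7 and 19.3 CPM in replicate 2, and at 118 and 104 CPM and 46.9 and 59.7 CPM in germline cells, so the germline libraries went opposite ways.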

How the results depend on the processing

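Calls of the reporter comparison in CySC-like cells numbered 66. They numbered 2 with DESeq2, 27 without mixed cells, 8 in thinned cells and 100 when at least 2 UMIs were required, of which 2, 24, 8 and 42 were among the 66. With the replicate block removed there were 0 calls, and with 1 library left out 0 to 5. RLE factors, no filter, all negative cells, another pairing order, a shared spread, no cells rich in terminal epithelium markers and 1 cell removed gave 67 to 87 calls, of which 38 (no cells rich in terminal epithelium markers) to 65 were among the 66. The interaction gave 114 calls, against 16 with DESeq2, 0 with no replicate block, 32 without mixed cells, 27 in thinned cells, 61 with at least 2 UMIs and 5 to 60 with 1 library left out. The tj comparison in Nanos-Upd gave 30 calls, against 2 with DESeq2, 0 with no replicate block, 90 with all negative cells, 66 with no filter, 46 without mixed cells, 8 without cells rich in terminal epithelium markers, 72 with another pairing order, 74 with a shared spread, 99 with at least 2 tj UMIs and 22 to 100 with 1 library left out. The cause of these shifts was not tested. Repeats of the named called genes in the reporter comparison kept direction and call 276 times and kept the direction but lost the call 227 times. CG18628 ranged from -0.094 to 2.22 with 1 library left out, reversing without TrafficJam-Upd replicate 1. Among the uncalled genes zfh1 reversed with at least 2 UMIs (0.31), and ptc in thinned cells (-0.18) and without TrafficJam-Upd replicate 1 (from -0.50 to 0.58 with 1 library left out). The positive share was 18.8% and 14.8% after thinning and 7.11% and 3.71% with at least 2 UMIs. Against all negative cells, positive cells held 250.2 more UMIs and 66.5 more genes (means of the 2 library differences in medians). Depth limits the split itself, since most positive cells held 1 UMI.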

Other observations

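Families that the lists did not cover, picked out by symbol after their values were seen, moved in small steps. Of 66 tested nuclear subunits of the respiratory chain and ATP synthase, 5 fell (cype, ox, ND-MLRQ, ATPsynE and ATPsynCF6) (7.58%, beside 0.367% of all genes) and none rose, and 56 (84.8%, beside 49.7% of all genes) lay below 0 with a median log2 fold change of -0.10. Of 13 genes of the mitochondrial genome 1 fell (7.69%, beside 0.367% of all genes), and 12 (92.3%, beside 49.7% of all genes) lay below 0. The 1 that fell, mt:ATPase6, stood at 3007 and 3279 CPM in positive and negative cells of replicate 1 and at 2529 and 2997 CPM in replicate 2. Ribosomal protein genes went the other way: of 84 tested, 3 rose (RpL37a, RpS26 and RpS29; 3.57%, beside 0.642% of all genes), none fell, and 77 (91.7%, beside 50.3% of all genes) lay above 0 with a median of 0.05. Positive cells had a lower mitochondrial percent in both libraries, by 0.216 and 0.357 percentage points in the medians of matched cells, and a higher ribosomal percent, by 0.248 and 1.47 points, and the part of these in the calls was not tested.

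The calls that the naming rule did not reach included the following genes, chosen after their values were seen. SNF4Agamma, the gamma subunit of the energy sensor AMPK, stood at 484 and 372 CPM in replicate 1 and at 407 and 341 CPM in replicate 2 (0.35 ± 0.08, edgeR adjusted p = 0.0032). BNIP3, a receptor of mitophagy, stood at 529 and 396 CPM and at 472 and 423 CPM (0.33 ± 0.07, adjusted p = 0.0034). The sodium pump subunit gene nrv1 stood at 489 and 396 CPM and at 423 and 305 CPM (0.39 ± 0.08, adjusted p = 3.4e-04), and Sam-S, which makes the methyl donor S-adenosylmethionine, at 1042 and 857.5 CPM and at 839 and 713 CPM (0.29 ± 0.06, adjusted p = 2.3e-04). The glutathione transferase gene GstE9, at 2.14 and 9.65 CPM and at 1.84 and 11.04 CPM, had the largest fall among all 66 calls and one of the lowest levels. CG18628 kept a rise of 0.61 (adjusted p = 0.0025) once its 1 richest cell was removed, but it rested on replicate 1.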
